A study of Mus musculus with 6 samples.

Results

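The miR-23/27/24 clusters are a pair of related groups of miRNA genes, and 5 mature miRNAs from them were followed in mouse serum: miR-23a-3p (MIMAT0000532), miR-23b-3p (MIMAT0000125), miR-24-3p (MIMAT0000219), miR-27a-3p (MIMAT0000537) and miR-27b-3p (MIMAT0000126). They were chosen by their miRBase identifiers, by a rule that uses no counts. Earlier results of these data were known when the choice was made. Of the 5, 4 had reads and did so in all 6 libraries, among 788 miRNAs that had a read in any library. The exception was miR-24-3p, which had no entry in any of the 6 lists. The libraries were prepared using the NEBNext, TruSeq and TailorMix small RNA kits, 2 libraries for each kit, and the study compared the kits on serum RNA. Serum came from individual healthy 129/SVj mice of both sexes, 2 to 9 months old, with no genetic change and no treatment beyond sedation with tribromoethanol for blood collection. The labels number the serum 1 and 2 within each kit, and the sources used here do not say which mouse gave which library or whether the kits shared the same sera. The reads counted on miRNAs numbered 165139 to 351758 per library, and this total was the denominator of each share given below.

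Mature miRNAs guide Argonaute proteins to messenger RNAs through a short seed near their 5′ end, and targets that pair with the seed are repressed. The miR-23, miR-27 and miR-24 hairpins sit together in a paralogous pair of clusters, so that miR-23 and miR-27 each exist as an a and a b form, while miR-24-3p is made from both clusters with the same sequence. The clusters are known for their expression in endothelial cells and for roles in blood vessel growth. Among the known targets, miR-23a and miR-23b repress glutaminase, miR-27a and miR-27b restrain fat cell differentiation, and miR-24 acts on genes of the cell cycle. These are general facts and were not measured here.

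The sequences of the members are shown because the paralogs compared below differ by a single base. They are taken from RefSeq (GRCm38.p6) and written 5′ to 3′, with the seed (bases 2 to 8) in capitals and, in the a and b forms, also the base at which they differ. For miR-23b the stretch of the Mir23b hairpin that aligns to miR-23a-3p is given.
miR-23a-3p: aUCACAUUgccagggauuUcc
Mir23b hairpin stretch: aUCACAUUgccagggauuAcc
miR-27a-3p: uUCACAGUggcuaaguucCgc
miR-27b-3p: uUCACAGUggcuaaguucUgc
miR-24-3p: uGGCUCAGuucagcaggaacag

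Counting from 1 at the 5′ end, the change from miR-27a-3p to miR-27b-3p is C19U, and that from miR-23a-3p to the Mir23b stretch is U19A. The a and b forms thus share 20 of 21 bases, their whole seed, their first base and their last base. Between miR-23a-3p and miR-27a-3p 11 of 21 bases are the same in place, with 1 difference inside the seed. A read that begins at the first base and is at most 18 bases long fits both paralogs, since the difference lies at base 19. The authors kept reads of at least 15 bases and allowed no mismatch, and how reads that fit both paralogs were counted is not given in the sources used here. The hairpins of the miR-27 paralogs and of Mir23b are printed to show how much further the precursors differ around the mature miRNA, or the aligned stretch, which is in capitals.
Mir27a hairpin: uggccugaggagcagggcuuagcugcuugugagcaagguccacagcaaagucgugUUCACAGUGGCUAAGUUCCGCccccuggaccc
Mir27b hairpin: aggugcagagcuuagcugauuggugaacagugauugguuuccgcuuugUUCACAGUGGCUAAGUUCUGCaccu
Mir23b hairpin: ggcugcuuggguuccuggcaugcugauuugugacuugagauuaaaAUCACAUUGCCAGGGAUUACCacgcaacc

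On GRCm38, the build to which the authors mapped the reads, the a cluster (Mir23a, Mir27a and Mir24-2) spans 404 bp of the plus strand, chr8:84208518-84208921. GENCODE release M21 annotates no other gene over Mir23a (chr8:84208518-84208592) or Mir27a (chr8:84208672-84208758), while Mir24-2 (chr8:84208815-84208921) touches an exon of the lincRNA gene Gm26532. The b cluster (Mir23b, Mir27b and Mir24-1) spans 792 bp of the plus strand, chr13:63300484-63301275, inside the protein-coding gene 2010111I01Rik on the same strand and opposite an intron of Fancc. Mir23b (chr13:63300484-63300557) lies in an intron of 2010111I01Rik, whereas Mir27b (chr13:63300712-63300784) and Mir24-1 (chr13:63301208-63301275) overlap exons of transcripts that are annotated as non-coding or as targets of nonsense-mediated decay.

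The miR-24-3p entry was missing with each kit, although its cluster partners were counted. An unlisted miRNA was taken as 0, and the lists go down to 1 count. A count of 0 allows a share of up to 0.000853% to 0.00182% of the miRNA reads (3 counts of the total, counting error only), a limit on reads listed under its identifier and not on miR-24-3p in serum if its reads were listed under another entry. In RefSeq, miR-24-3p overlaps miR-3074-5p on the opposite strand by 20 bases in both clusters, whereas none of the other 4 members overlaps another mature miRNA. The authors matched reads to miRNAs by genomic position, and whether strand was used is not given. The part of this overlap in the missing entry was not tested, and no value of miR-24-3p enters the results below.

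With NEBNext, miR-27a-3p was the most abundant of the 4 members with reads, with TruSeq and TailorMix it was miR-27b-3p, and miR-23b-3p was the least abundant with all 3 kits. Together the 4 members took 7.20% and 7.97% of the miRNA reads of the TruSeq libraries, 2.95% and 2.94% of those of NEBNext and 0.644% and 0.648% of those of TailorMix. The kits did not overlap, with TruSeq highest and TailorMix lowest. No other of the 15 ways to group 6 libraries into pairs separated the groups as far (two-sided exact permutation test of F, p = 0.0667, which is the smallest p of this design). Taken against all reads annotated as any small RNA, the mean of NEBNext (0.0270%) came close to that of TailorMix (0.0241%), with TruSeq at 0.228%. Serum holds RNA released by many cell types, so more releasing cells and more RNA per cell cannot be told apart in these levels.

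**Figure D1:**
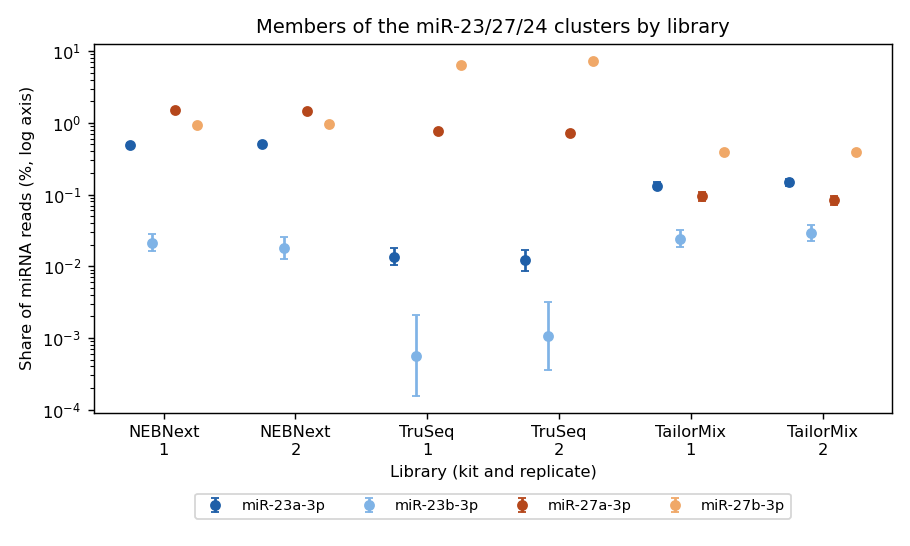
Share of the miRNA reads (%, log axis) of each member with reads in the 6 libraries. Points are single libraries and bars 95% Wilson intervals, which cover counting error only. miR-27b-3p stands at 6.43% and 7.23% with TruSeq and under 1% with the other kits, and miR-23b-3p falls to 2 and 3 counts with TruSeq.

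miR-27b-3p was the member with the widest swing between kits in absolute share. It had 2075 and 1597 counts with NEBNext (0.923% and 0.967% of miRNA reads), 22621 and 20407 counts with TruSeq (6.43% and 7.23%) and 759 and 764 counts with TailorMix (0.392% and 0.388%). The TruSeq libraries were high, the TailorMix libraries low, and no kits overlapped. In both TruSeq libraries miR-27b-3p was the miRNA with rank 4 by counts, among 421 and 367 listed miRNAs. With the other kits its rank lay between 29 and 38. Of all annotated reads it took on average 0.00865% with NEBNext, 0.206% with TruSeq and 0.0146% with TailorMix, so that with this denominator TailorMix came above NEBNext.

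miR-27a-3p had 3397 and 2399 counts with NEBNext (1.51% and 1.45%), 2660 and 2045 counts with TruSeq (0.756% and 0.725%) and 182 and 163 counts with TailorMix (0.0941% and 0.0828%). Its share was therefore highest with NEBNext and lowest with TailorMix, without overlap between kits. Its rank by counts was 23 in both NEBNext libraries, 26 and 25 with TruSeq, and 70 and 74 with TailorMix. The rank with TruSeq was thus close to that with NEBNext although the share was lower. Of all annotated reads it took on average 0.0135% with NEBNext, 0.0223% with TruSeq and 0.00331% with TailorMix, which puts TruSeq above NEBNext.

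miR-23a-3p had 1119 and 835 counts with NEBNext (0.498% and 0.506%), 48 and 34 counts with TruSeq (0.0136% and 0.0121%) and 258 and 292 counts with TailorMix (0.133% and 0.148%). Here NEBNext was highest and TruSeq lowest, again without overlap. Its rank moved from 42 in both NEBNext libraries to 103 and 105 with TruSeq, and was 61 and 58 with TailorMix. Of all annotated reads it took on average 0.00459% with NEBNext, 0.000387% with TruSeq and 0.00526% with TailorMix, so that TailorMix came just above NEBNext and TruSeq stayed lowest.

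miR-23b-3p had 48 and 30 counts with NEBNext (0.0213% and 0.0182%), 2 and 3 counts with TruSeq (0.000569% and 0.00106%) and 47 and 57 counts with TailorMix (0.0243% and 0.0289%). Its TruSeq shares rest on so few reads that their 95% Wilson intervals run from 0.000156% to 0.00207% and from 0.000362% to 0.00313%. Both intervals end below those of the other 4 libraries. NEBNext and TailorMix shares did not overlap, but the intervals of their single libraries did. In the exact permutation test each of the 4 members gave p = 0.0667, the smallest possible, and the adjusted p over the family of 7 tests was also 0.0667. Neither this test nor the overlap of kits was examined over all miRNAs, so neither sets the members apart. In the edgeR comparisons given below, 68.6% to 77.5% of all miRNAs tested differed between 2 kits.

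The paralogs were then compared with each other inside each library, where neither depth nor scaling between libraries enters. miR-23a-3p exceeded miR-23b-3p in 6 of 6 libraries. Per read of miR-23b-3p there were 23.3 and 27.8 reads of miR-23a-3p with NEBNext and 24 and 11.3 with TruSeq, but 5.49 and 5.12 with TailorMix. For the TruSeq libraries, with 2 and 3 counts of the b form, the 95% intervals of the ratio were 6.43 to 89.6 and 3.69 to 34.8. The mean log2 ratio of a to b over the 6 libraries was 3.61 ± 1.07 (SD, n = 6; exact sign-flip permutation test, two-sided, p = 0.0312, the smallest that 6 libraries allow). The 2 libraries of a kit share their preparation, so the 6 values are not fully independent, and with the counts of each kit pooled into 1 value the exact p was 0.250.

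For miR-27 the order of the paralogs depended on the kit. In the NEBNext libraries miR-27a-3p exceeded miR-27b-3p, with 1.64 (95% interval 1.55 to 1.73) and 1.5 (1.41 to 1.60) reads of the a form per read of the b form. In the TruSeq libraries the b form exceeded the a form, with 8.50 (8.17 to 8.85) and 9.98 (9.54 to 10.4) reads of b per read of a. In the TailorMix libraries it did so by 4.17 (3.55 to 4.90) and 4.69 (3.96 to 5.55). The intervals of single libraries exclude equal numbers in all 6 libraries and cover counting error only. As log2 ratio of a to b, the means were 0.65 ± 0.088 for NEBNext, -3.20 ± 0.16 for TruSeq and -2.14 ± 0.12 for TailorMix (SD, n = 2 each). Between any 2 kits these means differed by more than the SD of either kit. The mean of TruSeq minus that of NEBNext was -3.85, that of TailorMix minus NEBNext -2.79 and that of TailorMix minus TruSeq 1.06 (two-sided exact permutation test of F over the kits, p = 0.0667, which is the smallest possible). Over the 6 libraries the mean was -1.57 ± 1.78 (SD, n = 6), and since 2 libraries had more of the a form and 4 more of the b form, no common direction was found (exact sign-flip permutation test, two-sided, p = 0.125).

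The miR-23 ratio also moved between kits, but without a change of direction. Its log2 ratio of a to b averaged 4.65 ± 0.17 for NEBNext, 3.79 ± 0.69 for TruSeq and 2.40 ± 0.069 for TailorMix (SD, n = 2 each; two-sided exact permutation test of F, p = 0.0667, again the smallest possible). From NEBNext to TruSeq the log2 ratio fell by 0.86 for miR-23 and by 3.85 for miR-27. The miR-23 fall rests on 2 and 3 TruSeq counts of the b form, and in part on the fixed amount added to each count. Without that amount, the ratio of TruSeq replicate 1 was 24 (95% interval 6.43 to 89.6), between the NEBNext ratios of 23.3 and 27.8. The permutation test was not repeated without the added amount, so a miR-23 difference between NEBNext and TruSeq is not established. From NEBNext to TailorMix the log2 ratio changed by -2.26 for miR-23 and by -2.79 for miR-27. From TruSeq to TailorMix the ratios moved in opposite directions, by -1.39 for miR-23 and by 1.06 for miR-27. Whether miR-23 and miR-27 differed in these shifts was not tested.

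**Figure D2:**
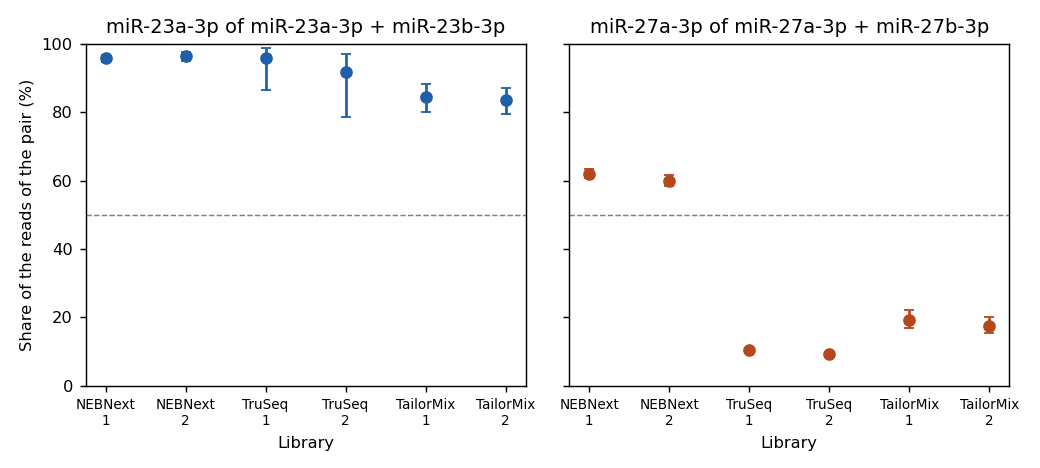
Share of the a form among the reads of a paralog pair (%), miR-23 on the left and miR-27 on the right, in the 6 libraries. Points are single libraries, bars 95% Wilson intervals, and the dashed line marks equal numbers. The a form holds 83.7% to 96.5% of the miR-23 reads in all libraries, whereas for miR-27 it holds 62.1% and 60.0% with NEBNext and at most 19.3% with the other kits.

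Adding the members of a cluster shows the same dependence on the kit. These sums and the ratios within a cluster were formed after the counts had been seen and were not tested. The a cluster (miR-23a-3p and miR-27a-3p) held 68.0% and 66.5% of the reads of the 4 members with NEBNext, 35.3% and 35.7% with TailorMix and as little as 10.7% and 9.24% with TruSeq. Inside the a cluster, there were 3.04 and 2.87 reads of miR-27a-3p per read of miR-23a-3p with NEBNext and 55.4 and 60.1 with TruSeq, but 0.705 and 0.558 with TailorMix. TailorMix was thus the only kit of the 3 with more miR-23a-3p than miR-27a-3p. Inside the b cluster miR-27b-3p exceeded miR-23b-3p in all 6 libraries, by 43.2 and 53.2 reads per read with NEBNext, 16.1 and 13.4 with TailorMix and, against 2 and 3 counts of miR-23b-3p, by 11311 and 6802 with TruSeq. miR-27b-3p alone made up 89.3% and 90.7% of the reads of the 4 members with TruSeq, 60.9% and 59.9% with TailorMix and 31.3% and 32.9% with NEBNext.

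**Figure D3:**
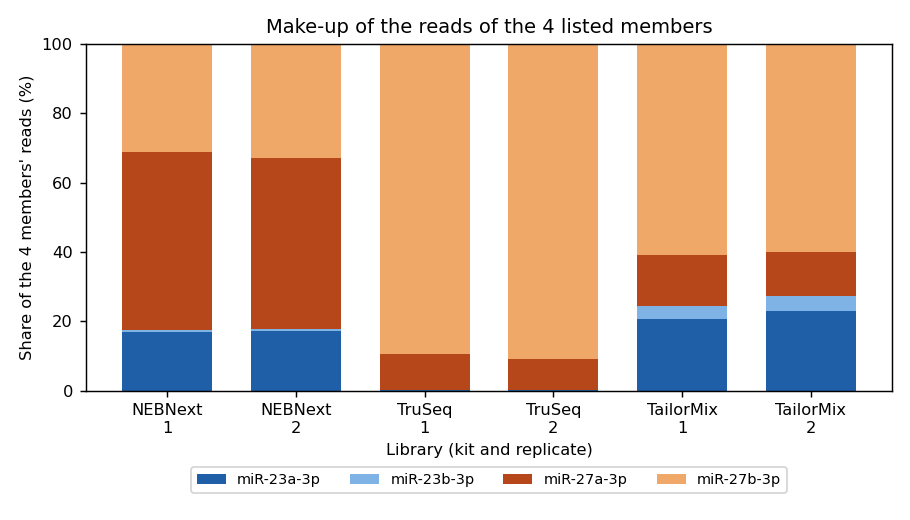
Make-up of the reads of the 4 members with reads in each library, as shares (%) of their sum, stacked by member. miR-27a-3p and miR-27b-3p fill nearly the whole bar with TruSeq, and miR-23a-3p takes 20.7% and 22.9% with TailorMix.

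To place the members among all miRNAs, differences between the kits were fitted by edgeR's quasi-likelihood method, with Benjamini-Hochberg adjustment over 360 miRNAs, which included all 4 members with reads. miR-24-3p was not among them. From NEBNext to TruSeq 3 of the 4 members passed an adjusted p under 0.05, beside 68.6% of all miRNAs tested. miR-27b-3p rose by 3.92 on the log2 scale (standard error 0.099, adjusted p = 4.97e-27 by edgeR), whereas miR-23a-3p changed by -4.20 (standard error 0.17, adjusted p = 3.64e-21 by edgeR) and miR-23b-3p by -3.53 (standard error 0.51, adjusted p = 1.96e-07 by edgeR). miR-27a-3p, at 0.07 (95% interval -0.15 to 0.29), did not pass (adjusted p = 0.578 by edgeR). Its call and direction depended on the settings, since it passed at -1.0 with total miRNA reads as scale (adjusted p = 1.35e-23 by edgeR), at 0.72 with total annotated reads (8.55e-09) and at 0.26 without TailorMix replicate 2 (0.0460). With the same kits and the same test, both forms of miR-23 fell and miR-27b-3p rose. The difference between the miR-27 forms from NEBNext to TruSeq alone was not tested.

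From NEBNext to TailorMix all 4 members passed, beside 77.5% of all miRNAs. The log2 fold change furthest from 0 was that of miR-27a-3p, -3.41 (standard error 0.13, adjusted p = 3.37e-22 by edgeR). miR-27b-3p changed by -0.62 (standard error 0.093, adjusted p = 3.62e-07 by edgeR) and miR-23a-3p by -1.18 (standard error 0.13, adjusted p = 1.52e-09 by edgeR). Both of these directions turned with total annotated reads as scale. There miR-27b-3p still passed, at 0.75 (adjusted p = 1.5e-09 by edgeR), but miR-23a-3p, at 0.20, did not (adjusted p = 0.203 by edgeR). miR-23b-3p rose by 1.07 (standard error 0.26, adjusted p = 0.000600 by edgeR), but it did not pass with DESeq2 (adjusted p = 0.0669), without a filter on low counts (0.0511) or with the total of miRNA reads as scale (0.145). From TruSeq to TailorMix, all 4 passed, beside 70.6% of all miRNAs. Both forms of miR-23 rose, by 3.02 for miR-23a-3p and 4.59 for miR-23b-3p (standard errors 0.18 and 0.46), and both forms of miR-27 fell, with -3.48 for miR-27a-3p and -4.54 for miR-27b-3p (standard errors 0.13 and 0.10), with adjusted p of at most 7.97e-11 by edgeR. The 3 comparisons share libraries and are not independent of each other. The very small p rest on a spread estimated over all miRNAs, since each kit has only 2 libraries.

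**Figure D4:**
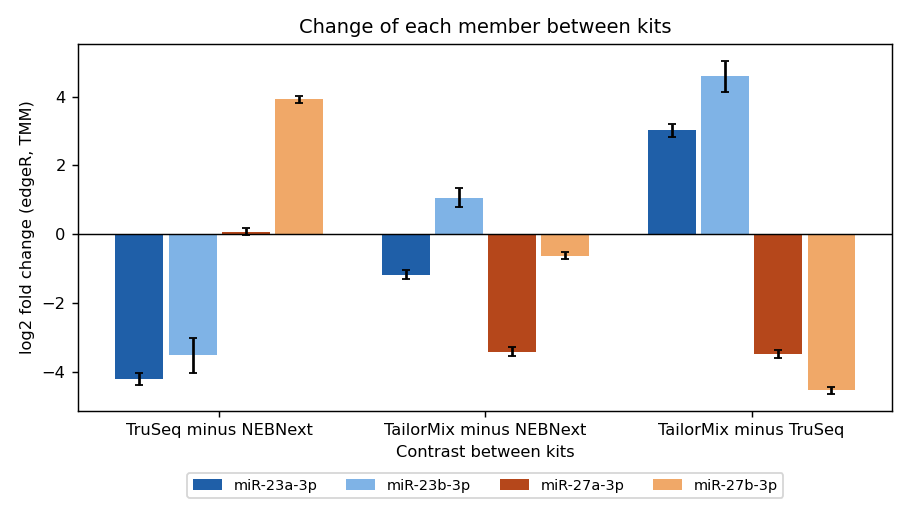
log2 fold changes of the 4 members with reads in the 3 comparisons of kits, from edgeR with TMM normalization. Bars show the fold change and error bars its standard error. From NEBNext to TruSeq miR-27b-3p is at 3.92 and both forms of miR-23 are below -3, while miR-27a-3p is near 0.

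A share of members called of 3 or 4 in 4 is not far from that of all miRNAs, so being called does not set the members apart. Nor did the size of their changes, which ranked between 84 and 347 of 360 by absolute log2 fold change in the 3 comparisons. The median over the 4 members was -1.73 from NEBNext to TruSeq, -0.90 from NEBNext to TailorMix and -0.23 from TruSeq to TailorMix, beside medians of -0.53, -0.24 and 0.50 over all miRNAs tested. The scaling between kits moves all of these values. With total miRNA reads as scale the medians over all miRNAs were -1.48, -0.88 and 0.91, and with total annotated reads 0.00, 1.1 and 1.23. A change of scale shifts all fold changes of a comparison nearly alike, and subtracting the median takes this shift out. That the members kept their directions relative to these medians under each of the 4 scalings tried follows from this subtraction. It is no separate check of the members. From NEBNext to TruSeq, miR-27a-3p lay 0.47 to 0.72 above the median, miR-27b-3p 4.33 to 4.57 above it, and miR-23a-3p between -3.80 and -3.55 from it. From NEBNext to TailorMix, miR-23b-3p lay 1.30 to 1.36 above the median, miR-27b-3p between -0.40 and -0.35 and miR-23a-3p between -0.95 and -0.90. Taken by themselves, 3 fold changes turned direction with another scale. With total annotated reads miR-23a-3p and miR-27b-3p went from lower to higher in TailorMix than in NEBNext (0.20 and 0.75). At 0.20 miR-23a-3p no longer passed (adjusted p = 0.203 by edgeR). With total miRNA reads miR-27a-3p was lower in TruSeq than in NEBNext (-1.0). The split of called members into higher and lower was 1 and 2 from NEBNext to TruSeq and 1 and 3 from NEBNext to TailorMix, and became 2 and 2, and 2 and 1, with total annotated reads.

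Last, the profile of each member over the 6 libraries was compared with those of the other miRNAs by the root mean square difference. Profiles were log2 CPM (counts scaled to library size with TMM factors, with a prior count of 2 added) centred on their mean. The miR-23 paralogs stood 0.94 log2 units apart, which made miR-23b-3p neighbour 15 of 146 for miR-23a-3p, and miR-23a-3p neighbour 8 of 146 for miR-23b-3p. With TruSeq miR-23b-3p had only 2 and 3 counts, under the 4 required of the miRNAs other than the members. All distances of miR-23b-3p thus rest in part on the prior count. The miR-27 paralogs stood 1.63 apart, with miR-27b-3p as neighbour 57 of 145 for miR-27a-3p, and miR-27a-3p as neighbour 37 of 145 for miR-27b-3p. The members of the same cluster were further from each other than the paralogs, with 2.68 between miR-23a-3p and miR-27a-3p and 3.64 between miR-23b-3p and miR-27b-3p. Among 143 miRNAs other than the members with at least 4 counts in all libraries, the closest were MIMAT0000152 for miR-23a-3p (0.40), MIMAT0014856 for miR-23b-3p (0.42), MIMAT0000129 for miR-27a-3p (0.22) and MIMAT0000211 for miR-27b-3p (0.19), and the next at 0.44, 0.74, 0.24 and 0.40. No table pairs these identifiers with names here, so other products of the 2 clusters, or of the strand opposite to them, may be among the 143, these 4 neighbours included. The 6 points of a profile come from 3 kits, so a likeness over them is a description without a test.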

How the data were processed

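The 6 serum libraries (3 kits, 2 libraries each) had been size-selected at 125 to 153 bp. The authors trimmed adaptors (Cutadapt 1.8.1), mapped reads without mismatches (Bowtie 1.1.2, GRCm38) and annotated them by position, and deposited raw counts per miRNA, without normalization, and per sequence of other small RNAs. From these counts, shares of miRNA reads with 95% Wilson intervals, log2 ratios (0.5 added to each count) and exact permutation tests over libraries (15 groupings of kits, or sign flips) were computed with Python 3.11.15 and scipy 1.17.1. edgeR 4.0.16 (glmQLFit and glmQLFTest, TMM) was fitted to the 6 libraries over miRNAs that reached 4 counts in 2 or more libraries, without a replicate block. Standard errors are the absolute log2 fold change divided by the square root of F. DESeq2 1.42.0, the tool of the study, other scalings, filters, the replicate block and single libraries left out were alternatives. Depth was 165139 to 351758 miRNA reads per library, and intervals cover counting error only, as reads carry no molecular identifiers. Replicates of a kit differed by more than counting noise, most of all with TruSeq. The chi-square per degree of freedom was 2.16 for NEBNext, 15.0 for TruSeq and 1.59 for TailorMix. Serum came from individual mice, but which mouse gave which library is not stated, so p-values measure the spread between these libraries, which may be technical.

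Named miRNAs are the 5 members and, for each, its nearest neighbours by profile. Members and lists were chosen with earlier results of these data known. The other arms of the hairpins and markers of red cells, liver, myeloid cells and endothelium had been listed too, but no table used here pairs their names with identifiers, so they have no values. The family of exact tests lost miR-24-3p, which has no counts. The scripts were tested on simulated counts. With 4-fold changes between TruSeq and NEBNext (dispersion 0.02), edgeR called 78 of 102 changed miRNAs tested and 2 of 259 unchanged ones. No changed miRNA was called in the wrong direction. Other comparisons and dispersions were not simulated for edgeR.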

Additional observations from a re-analysis of the deposited data

Results flagged for a closer look

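The log2 ratio of miR-27a-3p to miR-27b-3p was positive in both NEBNext libraries (mean 0.65) and negative in both TruSeq libraries (mean -3.20) and both TailorMix libraries (mean -2.14), so that the kits put the paralogs in opposite orders. The difference between kits had p = 0.0667 in the exact permutation test, the smallest p that 6 libraries in 3 pairs can give. The cause was not tested.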

How the results depend on the processing

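Of 168 alternative values of the 12 log2 fold changes, 157 kept direction and side of the threshold. The exceptions concern miR-27a-3p from NEBNext to TruSeq, which went from 0.07 to -1.0 with total miRNA reads as scale (adjusted p = 1.35e-23 by edgeR), to 0.72 with total annotated reads, to 0.26 without TailorMix replicate 2 (adjusted p = 0.0460 by edgeR), and to -0.19, -0.11 and -0.057 without NEBNext replicate 1, NEBNext replicate 2 and TruSeq replicate 1; and, from NEBNext to TailorMix, miR-23b-3p, which missed the threshold at 0.42 with total miRNA reads, at 0.82 without a filter and at 1.07 with DESeq2, and miR-23a-3p and miR-27b-3p, which turned to 0.20 and 0.75 with total annotated reads. At 0.20 miR-23a-3p missed the threshold (adjusted p = 0.203 by edgeR), whereas miR-27b-3p at 0.75 passed it (adjusted p = 1.5e-09 by edgeR). The values with total miRNA reads or total annotated reads differ from the main ones only by the scale used, which itself sets these changes. The cause of the others was not tested. The summed share of the members was 0.0270% for NEBNext, 0.228% for TruSeq and 0.0241% for TailorMix when taken of all annotated reads, a larger total. The mean log2 ratio of miR-23 over the libraries was 3.65 with the counts of each kit pooled and 3.38 to 3.87 with a library left out, where fewer values cannot give a p under 0.05 (exact sign-flip test, smallest p = 0.0625 with 5 libraries). Leaving out 1 library of a kit could not change the sign of its miR-27 ratio, since both libraries of each kit had the same sign.

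With the replicate number as a block, 3, 4 and 4 members were called in the 3 comparisons, the same counts as without it, and 232, 250 and 235 of all miRNAs instead of 247, 279 and 254. The differences between replicates 1 and 2 correlated across 68 miRNAs at 0.164 (NEBNext and TruSeq), -0.0382 (NEBNext and TailorMix) and 0.0502 (TruSeq and TailorMix). The first lay above the threshold of 0.1 set for this check and the rest below it. These correlations cannot decide whether the kits shared sera. The numbers were not taken as pairs because the labels do not say that a number is the same serum in each kit. Depth limits miR-23b-3p with TruSeq, at 2 and 3 counts.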
